A study of Mus musculus with 30 samples.

Results

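The receptors for the monoamines and acetylcholine were measured in mouse hypothalamus as 75 array probes of 52 genes, out of 41174 probes on the array. A probe was included when the gene name on the array began with the stem of a serotonin (Htr), dopamine (Drd), noradrenaline (Adra, Adrb), muscarinic (Chrm), nicotinic (Chrn) or histamine (Hrh) receptor, so membership used names and no measured value. The array names the dopamine D1 receptor Drd1a, and it carries 1 probe for 31 of these genes, 2 for 19 and 3 for Adra2a and Htr2c.

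The RNA came from hypothalamic blocks of 30 mice, as the labels count them, each hybridized to 1 one-colour array: 7 Per3 5/5 (labelled Boxhill), 8 Per3 4/4 (Coach) and 15 wild-type (WT). Both knock-in (KI) lines carry human PER3 exon 18, with 5 or 4 copies of the tandem repeat, in place of the mouse exon in every cell, and the controls carry the mouse exon alone. All mice were adults described in the study's methods as male C57BL/6, with the KI lines made in embryonic stem cells of a C57BL/6 congenic strain and the KI allele produced by a ubiquitous Cre that was then bred out. WT and KI mice descended from the same conditional animals. All were kept under cycles of 3.5 h light and 3.5 h dark, with brains taken in the 17th light phase. The arrays were made in 2 runs: Per3 5/5 with WT arrays 1 to 7, and Per3 4/4 with WT arrays 8 to 15. Each KI line was therefore set against the WT mice of its own run, and the lines were compared through the difference between those effects, since genotype and run cannot be told apart otherwise.

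A few arrays went against the study's methods or stood apart. On Per3 4/4 arrays 6 and 7 the Y-linked genes Ddx3y, Eif2s3y and Kdm5d were not above background, unlike on the other 28 arrays. The methods describe these mice as male, and their sex was not tested otherwise. On WT array 10 of run 2 the mean log2 level of 12 hypothalamic neuron markers lay 2.30 below the mean of its group, while 8 striatal markers lay 1.46 above. The mean of 8 pituitary markers deviated from its group by 6.12 on WT array 14 of run 2 and by -3.21 on WT array 10, the extremes of that list. The hypothalamic markers themselves were present throughout: 11 of the 12 on the array, among them Hcrt, Pmch, Oxt and Avp, were well above background on all 30 arrays, and the other, Sim1, on 14.

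Monoamines and acetylcholine are released by compact cell groups, several of them in the brainstem and the tuberomammillary part of the hypothalamus, whose axons reach most of the forebrain and which are known for their part in arousal. Most of their receptors act through G proteins: Gs-coupled receptors raise cAMP, Gi/o-coupled receptors lower it and open potassium channels, and Gq-coupled receptors activate phospholipase C. The nicotinic receptors and the 5-HT3 receptor are instead ion channels built from 5 subunits, so that which subunits a cell makes sets the kind of channel it can assemble.

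Of the 75 receptor probes, 62 (46 genes) were well above local background on at least 50% of the arrays of a genotype and were tested, among 29946 probes in all. Of these 62, 4 passed through Per3 4/4 alone (the dim Chrm1, Chrna1 and Chrna7 probes and Chrnb1) and 1, the second Chrnb3 probe, through Per3 5/5 alone, so their values in comparisons with that line are descriptions and support nothing. The same holds in both lines for the tested Chrng probe, which passed through the KI groups (6 of 7 and 5 of 8 arrays) and not through WT (3 of 7 and 3 of 8). A probe above background on all 30 arrays was found for 24 genes. Among Gi/o-coupled receptors these included Drd2, Hrh3, Htr1a, Htr5b, Adra2a and Adra2c. Among Gq-coupled receptors they included Htr2c, Hrh1, Adra1a, Adra1b, Adra1d, Chrm1, Chrm3 and Chrm5, and among Gs-coupled receptors Drd1a, Drd5, Adrb1 and Htr7. Of the channel subunits, Htr3a and the nicotinic Chrna4, Chrnb2, Chrna7, Chrnd and Chrne were above background throughout. No probe passed for 6 genes: Chrna2, Chrna5, Chrna9, Hrh4, Htr3b and Htr4, the most often detected of which, Chrna5, was above background on 7 of 30 arrays.

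**Figure D1:**
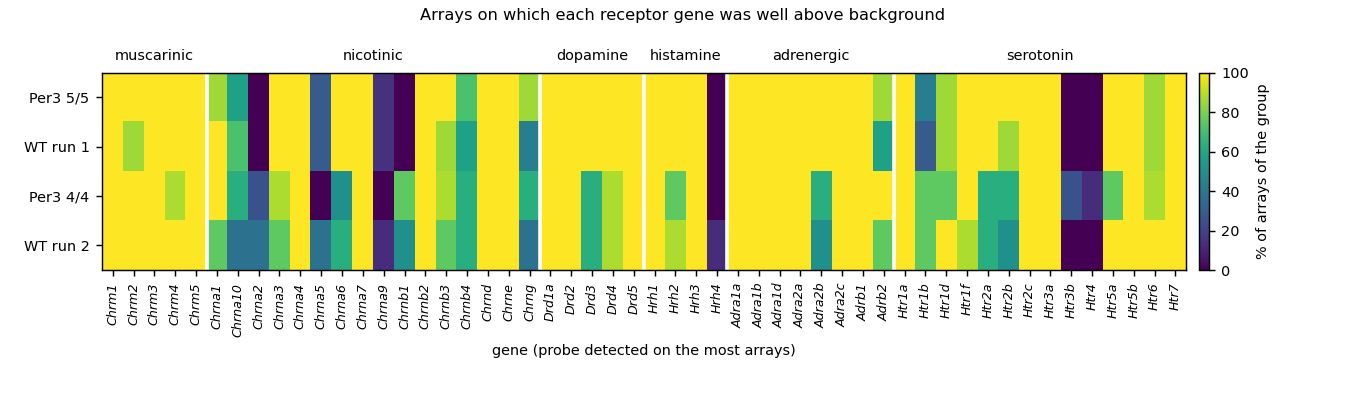
Share of arrays (%, colour) in each of the 4 groups on which the best detected probe of each of the 52 receptor genes was well above background; genes run along the x axis by transmitter, and the groups hold 7, 7, 8 and 8 arrays from top to bottom. The 24 genes with a probe above background on all 30 arrays are yellow throughout, and Chrnb1 was above background on 0 of 14 arrays in run 1 against 10 of 16 in run 2.

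Detection differed between the runs for channel subunits and for some G protein-coupled receptors. Adra2b was above background on 14 of 14 arrays in run 1 and 9 of 16 in run 2, Drd3 and Htr2a each on 14 of 14 and 10 of 16, and Htr1b on 5 of 14 and 12 of 16. The Chrnb1 probe, for a subunit of the muscle-type receptor, was above background on 0 of 14 arrays in run 1 and on 10 of 16 in run 2. Conversely, the second Chrne probe passed on 14 of 14 arrays in run 1 and 2 of 16 in run 2, and the first Chrna3 probe on 14 of 14 and 5 of 16. The other probe of Chrne was above background on all 30 arrays and that of Chrna3 on 27. Because probes of 1 gene differed in this way, the first 30 of the 60 bases of the Chrna3 probes are shown with their positions in mouse genome build mm9, as the deposited annotation gives them.
Chrna3 probe 1, chr9:54859231-54859290, minus strand: tctcaacagtgattgagatataagagatga
Chrna3 probe 2, chr9:54860710-54862976, minus strand: gaaaatatgaaagcacagaatgtagccaaa
The span of the second Chrna3 probe, 2267 bases for a 60-base probe, means that its bases come from separate genomic segments, whereas the first is contiguous. Of the 75 receptor probes, 10 spanned more than 100 bases in this way.

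No receptor probe differed between genotypes after adjustment over all 29946 probes. Levels are log2 intensities relative to the 75th percentile of the array, and the test was limma with Benjamini-Hochberg adjustment. In Per3 5/5 against WT, 0 of the 62 probes passed (background 0% of all probes), with a smallest adjusted limma p of 0.796. In Per3 4/4 against WT it was again 0 of 62 (background 0.0134%, 4 probes), and in the difference between the effects 0 of 62 (background 0%). The rank product, the second test in the study's methods, called 2 receptor probes in Per3 5/5 at a false prediction rate under 0.015 (background 1.12%), both lower in KI, and 0 in Per3 4/4 (background 0.158%). The 2 were a Chrm1 and a Chrna1 probe that were above background on 11 and 10 of 30 arrays. At an unadjusted limma p under 0.05 there were 1, 0 and 3 receptor probes, or 1.61%, 0% and 4.84%, against 6.17%, 1.73% and 2.98% of all probes. One of the 3 in the difference was the Chrna1 probe that passed the detection filter through Per3 4/4 alone, which leaves 2, Drd2 and Chrm2. These unadjusted shares depended on single arrays. The share of all probes in Per3 5/5 was 2.69% without Per3 5/5 array 3 (3 receptor probes) and 9.73% without array 1 (1). That in Per3 4/4 was 5.19% without WT array 13 (3). In the difference the receptor count was 4 (6.45%) without WT array 11 (all 2.44%) and 4 without WT array 13 (all 4.53%). It was 0 without any 1 of Per3 5/5 arrays 1 and 2, Per3 4/4 arrays 1, 5 and 6, or WT arrays 3, 6, 8 and 15 (all probes 2.31% to 4.74%). With array weights the unadjusted counts were 10, 3 and 8 receptor probes, or 16.1%, 4.84% and 12.9%, against 10.1%, 5.36% and 10.1% of all probes. The receptor share in Per3 5/5 then lay above the background instead of below it. No receptor had all KI arrays above or below all WT arrays of its run, as did 0.0768% and 0.0968% of all probes in run 1 and 0.00668% each way in run 2. Because the RNA is of whole tissue blocks, fewer cells of a type and less RNA per cell cannot be told apart in any of these values.

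The 95% confidence interval lay wholly within a log2 fold change of -1 to 1 for 47 of 62 receptor probes in Per3 5/5 (75.8%, all tested probes 90.6%) and for 51 in Per3 4/4 (82.3%, all 94.0%), so fewer receptors than probes in general were bounded this closely. The median receptor log2 fold change was 0.05 in Per3 5/5 (all tested probes, -0.02) and -0.02 in Per3 4/4 (all, 0.01). Of the 62 probes, 38 lay above 0 in Per3 5/5 (61.3%, all 45.5%) and 27 in Per3 4/4 (43.5%, all 51.7%). Over the 30 receptor probes above background on all arrays neither lean was there: 15 lay above 0 in Per3 5/5 (50%, all such probes 48.1%; median -0.01) and 17 in Per3 4/4 (56.7%, all 51.4%; median 0.08).

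**Figure D2:**
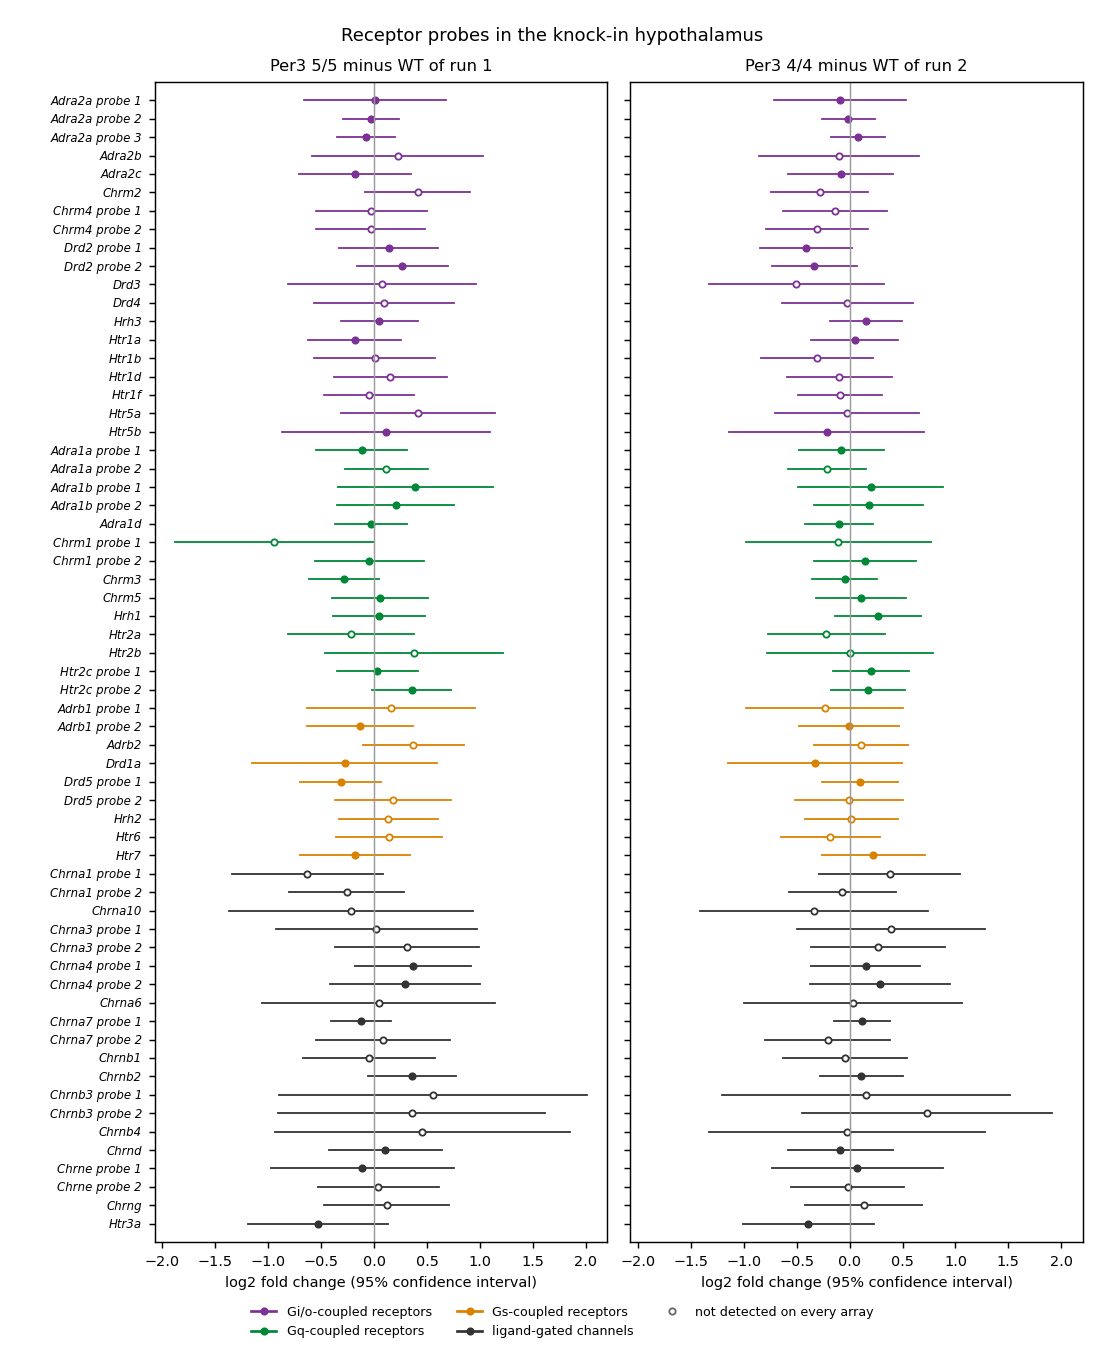
Log2 fold change (x axis) with its 95% confidence interval from limma for each of the 62 tested receptor probes (rows, coloured by receptor group), in Per3 5/5 (left) and Per3 4/4 (right), each against the WT mice of its run; open points are probes not above background on all 30 arrays. The widest intervals belong to the nicotinic subunits Chrnb3 and Chrnb4, and the Chrm1 probe 1 interval in Per3 5/5 ends just below 0.

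Among the Gi/o-coupled receptors, 19 probes were tested, 9 of them above background on every array. Their median log2 fold change was 0.05 in Per3 5/5, where 12 lay above 0 (63.2%, all probes 45.5%). In Per3 4/4 it was -0.10, and 16 lay below 0 (15.8% above 0, all probes 51.7%). The shares above 0 in the 2 lines were 57.1% and 57.1% for Gq-coupled receptors, 55.6% and 44.4% for Gs-coupled receptors, and 65% and 60% for channels. These shares were not tested. Drd2, the inhibitory dopamine receptor of striatal and pituitary cells and dopamine neurons, was read by 2 probes that lie within 1 stretch of chromosome 9, and both are shown because they ranked the arrays alike.
Drd2 probe 1, chr9:49215761-49215820, plus strand: ccaactctagtgtgaatccctactttccat
Drd2 probe 2, chr9:49215047-49215106, plus strand: atcctgaatatacactgtgactgcaacatc
On probe 2 the log2 level (lowest, median, highest) was -3.36, -3.02 and -2.66 in Per3 5/5 and -3.62, -3.33 and -2.94 in WT of run 1. In run 2 it was -3.29, -2.99 and -2.36 in Per3 4/4 and -3.81, -2.56 and -1.78 in WT. The KI and WT ranges overlapped in both runs, and the WT mice of run 2 were the most spread.

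The Drd2 probe 2 log2 fold change was 0.27 ± 0.21 (SE) in Per3 5/5 and -0.33 ± 0.20 in Per3 4/4. The difference between these effects was 0.60 ± 0.29 (unadjusted limma p = 0.0446, adjusted p = 1.00). Probe 1 gave 0.14 ± 0.23, -0.41 ± 0.21 and a difference of 0.55 ± 0.31 (unadjusted limma p = 0.0877). WT array 10 was among the highest for both probes, at 0.28 on probe 1 and -1.99 on probe 2. Without it, the difference was 0.52 on probe 2 (unadjusted limma p = 0.0766) and 0.41 on probe 1 (0.162), and with array weights it was 0.31 on probe 2. It was larger on probe 2 without WT array 13, at 0.78, and without Per3 4/4 arrays 6 and 7, at 0.67 (unadjusted limma p = 0.0319), where the Per3 4/4 effect on probe 1 was -0.49 (unadjusted limma p = 0.0428, adjusted p = 0.789). The median log2 fold change of the 8 striatal markers was -0.04 in Per3 5/5 and -0.15 in Per3 4/4, and that of 8 pituitary markers 0.21 and -0.33. In Per3 4/4 these medians turned to 0.09 for striatum without WT array 10 and to 0.71 for pituitary without WT array 14. Their part in the Drd2 values was not tested beyond the correlations given further on.

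Chrm2, the muscarinic autoreceptor of many cholinergic neurons (chr6:36473213-36473272), had log2 levels of -5.32, -4.60 and -4.08 (lowest, median, highest) in Per3 5/5 and -5.90, -4.95 and -4.32 in WT of run 1. In run 2 they were -4.51, -4.19 and -3.60 in Per3 4/4 and -4.69, -3.88 and -2.86 in WT. The groups overlapped in both runs, with 6 of 7 Per3 5/5 mice above the WT mean and 1 of 8 Per3 4/4 mice above theirs. The log2 fold changes were 0.41 ± 0.24 (SE) and -0.28 ± 0.23, and their difference 0.69 ± 0.33 (unadjusted limma p = 0.0445, adjusted p = 1.00). Without WT array 10 that difference was 0.78, and without WT array 15 it was 0.55 (unadjusted limma p = 0.0833). With normexp background correction it was 0.28. The Per3 4/4 effect by itself was -0.37 without WT array 10 and -0.14 without WT array 15.

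The remaining inhibitory receptors named here were close to WT or too variable to place. Hrh3, the histamine receptor that restrains histamine release, was at log2 levels of 4.34 to 4.73 in Per3 5/5 and 4.26 to 4.66 in WT of run 1, with fold changes of 0.05 ± 0.18 (SE) and 0.15 ± 0.17 in the 2 lines. Adra2a, the noradrenergic autoreceptor, gave -0.03 ± 0.13 and -0.01 ± 0.12 on the brightest of its 3 probes. Those probes did not all rank the arrays alike, as given further on. Htr1a, the main serotonin autoreceptor of the raphe, gave -0.18 ± 0.21 and 0.05 ± 0.20. Htr1b, the autoreceptor of serotonin terminals, gave 0.00 ± 0.28 and -0.31 ± 0.26, and its probe was above background on 17 of 30 arrays. Chrm4, the muscarinic receptor of striatal projection neurons, gave -0.03 ± 0.25 and -0.31 ± 0.24, and Htr5b, a serotonin receptor of the habenula and inferior olive, 0.11 ± 0.48 and -0.22 ± 0.45. The Htr5b value in Per3 4/4 was -0.002 without WT array 15 and -0.23 without WT array 10.

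**Figure D3:**
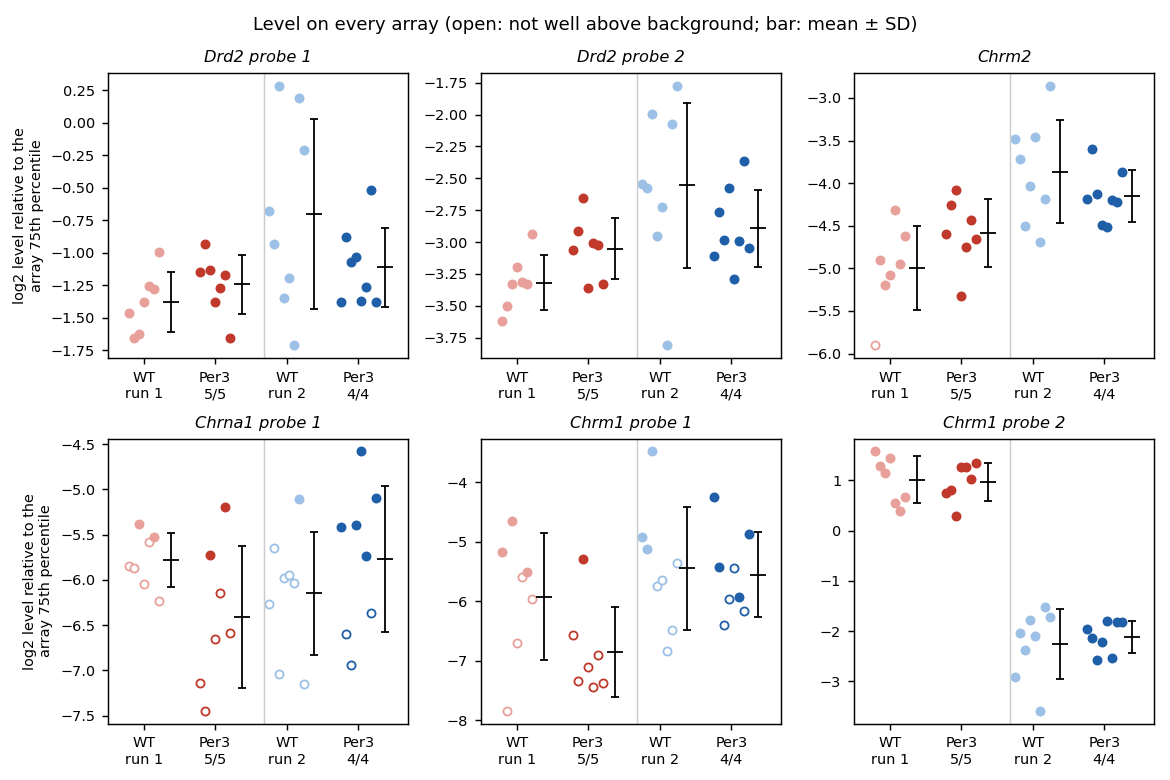
Log2 level relative to the 75th percentile of the array (y axis) on every array for Drd2 (probes 1 and 2), Chrm2, Chrna1 (probe 1) and Chrm1 (probes 1 and 2); x axis, the 4 groups with 7, 7, 8 and 8 arrays, runs parted by a grey line. Filled points were well above background, open points were not, and bars are mean ± SD; KI and WT overlap in every panel, and most Chrm1 probe 1 and Chrna1 probe 1 points are open.

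For the Gq-coupled receptors the median log2 fold change of 14 probes was 0.04 in Per3 5/5 and 0.06 in Per3 4/4. The single receptor probe below an unadjusted p of 0.05 in Per3 5/5 read Chrm1, the muscarinic receptor of cortical and hippocampal pyramidal cells. Its log2 level was -7.44, -7.12 and -5.29 (lowest, median, highest) in Per3 5/5 and -7.84, -5.59 and -4.65 in WT of run 1, a log2 fold change of -0.94 ± 0.46 (SE; unadjusted limma p = 0.0490, adjusted p = 0.796). With normexp background correction it was -0.21. It was above background on 1 of the 7 KI arrays and 3 of the 7 controls, so both means rest mostly on arrays without a measured signal. The other Chrm1 probe was above background on all 30 arrays and gave -0.05 ± 0.25 in Per3 5/5 and 0.15 ± 0.24 in Per3 4/4. The 2 probes are shown because they differ in what they read: probe 2 spans 12921 bases, across a splice junction, and probe 1 lies downstream on the same strand of chromosome 19.
Chrm1 probe 1, chr19:8755342-8755401, plus strand: tggtaagggaagttcccaaagcctaatgaa
Chrm1 probe 2, chr19:8739471-8752391, plus strand: tggacaagctggatgccaaggtgatgccct

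Htr2c, the serotonin receptor of hypothalamic appetite neurons and choroid plexus, was at log2 levels of 0.96, 1.13 and 1.54 (lowest, median, highest) in Per3 5/5 and 0.63, 0.76 and 1.49 in WT of run 1. All 7 Per3 5/5 mice lay above the WT mean, although the ranges overlapped, and the fold change was 0.36 ± 0.18 (SE; adjusted limma p = 0.796). In Per3 4/4 it was 0.18 ± 0.17 (0.09 without WT array 10), and the other tested Htr2c probe gave 0.03 and 0.20. Chrm3, the muscarinic receptor best known for glandular secretion, gave -0.29 ± 0.16 in Per3 5/5 (unadjusted limma p = 0.0871) and -0.05 ± 0.15 in Per3 4/4 (-0.13 without WT array 10). Hrh1, the receptor through which histamine promotes waking, gave 0.05 ± 0.21 and 0.26 ± 0.20 (0.05 without WT array 10). Htr2a, the cortical target of hallucinogens, gave -0.22 ± 0.29 and -0.22 ± 0.27, and Adra1b, a noradrenergic receptor abundant in thalamus, 0.21 ± 0.27 and 0.18 ± 0.25 (0.02 without WT array 10).

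The 9 tested probes of Gs-coupled receptors had median log2 fold changes of 0.13 in Per3 5/5 and -0.01 in Per3 4/4. Drd1a, the stimulatory dopamine receptor of striatal neurons, had log2 levels of -3.87, -3.48 and -2.38 (lowest, median, highest) in Per3 5/5 and -3.48, -3.06 and -2.43 in WT of run 1, and of -3.59, -2.69 and -1.49 in Per3 4/4 and -3.12, -2.71 and 0.81 in WT of run 2. The highest value was that of WT array 10, and the rest of the ranges overlapped. The fold changes were -0.28 ± 0.43 (SE) and -0.33 ± 0.40, and the latter was 0.10 without WT array 10. Htr7, a serotonin receptor linked to the circadian clock, gave -0.18 ± 0.25 and 0.22 ± 0.24 (-0.03 without WT array 10). Adrb1, the beta-adrenergic receptor of cortex and pineal, gave -0.13 ± 0.25 and -0.01 ± 0.23 on the brighter of its 2 probes.

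The 20 probes of ligand-gated channels had median log2 fold changes of 0.06 and 0.09, and the largest errors of the 4 groups (median SE 0.33 in Per3 5/5 and 0.31 in Per3 4/4). Chrna1, the muscle-type alpha subunit, was read by a probe (chr2:73401390-73401449) above background on 10 of 30 arrays. Its log2 level was -7.44, -6.59 and -5.19 in Per3 5/5 against -6.23, -5.84 and -5.38 in WT of run 1, and -6.94, -5.58 and -4.58 in Per3 4/4 against -7.15, -6.01 and -5.10 in WT of run 2. The ranges overlapped in both runs. The difference between the effects was -1.01 ± 0.48 (SE; -0.12 with normexp background correction), given as a description because the probe passed the detection filter through Per3 4/4 alone: it was above background on 2 arrays each of the 7 in Per3 5/5 and its controls, on 5 of 8 in Per3 4/4 and on 1 of 8 in its controls. The other Chrna1 probe, above background on 27 of 30 arrays, gave a difference of -0.19. Of the brain subunits, Chrnb2, the partner of most central nicotinic receptors, gave 0.36 ± 0.20 and 0.11 ± 0.19 (0.01 without WT array 10), Chrna4 0.29 ± 0.35 and 0.29 ± 0.33 (-0.09 without that array), and Chrna7, which forms channels alone, -0.12 ± 0.14 and 0.12 ± 0.13. Htr3a, the obligate 5-HT3 subunit, had log2 levels of 0.49 to 2.16 in Per3 5/5 and 1.51 to 2.38 in WT, and fold changes of -0.53 ± 0.32 and -0.39 ± 0.30 (-0.23 without WT array 10).

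The receptors were more spread among mice of 1 group than the median probe on the array, as were several of the related lists. The median within-group SD of the log2 level was 0.52 over the 62 receptor probes and 0.34 over all 29946. Over the probes above background on all arrays it was 0.43 for 30 receptor probes and 0.29 for all 22267, and these values are descriptions without a test. The median SD was 0.52 as well over the 12 transmitter synthesis genes, 0.46 over the 12 of transport and breakdown, 0.28 over the 30 of receptor signalling and 0.75 over the 12 hypothalamic neuron markers, so the spread was not particular to receptors. The 5 most variable of the 62 receptor probes all read nicotinic subunits: Chrnb3 (SD 1.41 and 1.22 on its 2 probes), Chrnb4 (1.35), Chrna10 (1.11) and Chrna6 (1.06). The Chrnb3 probes were above background on 26 and 14 of 30 arrays, Chrnb4 on 19, Chrna10 on 17 and Chrna6 on 23. Their spread therefore includes arrays without a measured signal. Over the 30 receptor probes above background on all arrays, the highest SD was 0.95. Chrnb4, the partner of Chrna3 in the receptors of the medial habenula and autonomic ganglia, ranged from -8.39 to -2.32 among WT arrays of run 2 and from -7.19 to -3.47 in Per3 4/4. Chrnb3, an accessory subunit of dopamine neurons and habenula, ranged from -7.82 to -2.24 and from -6.18 to -2.86 on its first probe. Chrna6, which assembles with Chrnb3 in dopamine terminals, ranged from -8.15 to -3.53 and from -6.38 to -3.59, whereas the Chrna10 spread came from 1 array, WT array 10, at -0.66 against -4.71 for the next. The fold changes of these genes were correspondingly uncertain, such as 0.56 ± 0.71 (SE) and 0.15 ± 0.66 for the first Chrnb3 probe (-0.32 in Per3 4/4 without WT array 10).

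**Figure D4:**
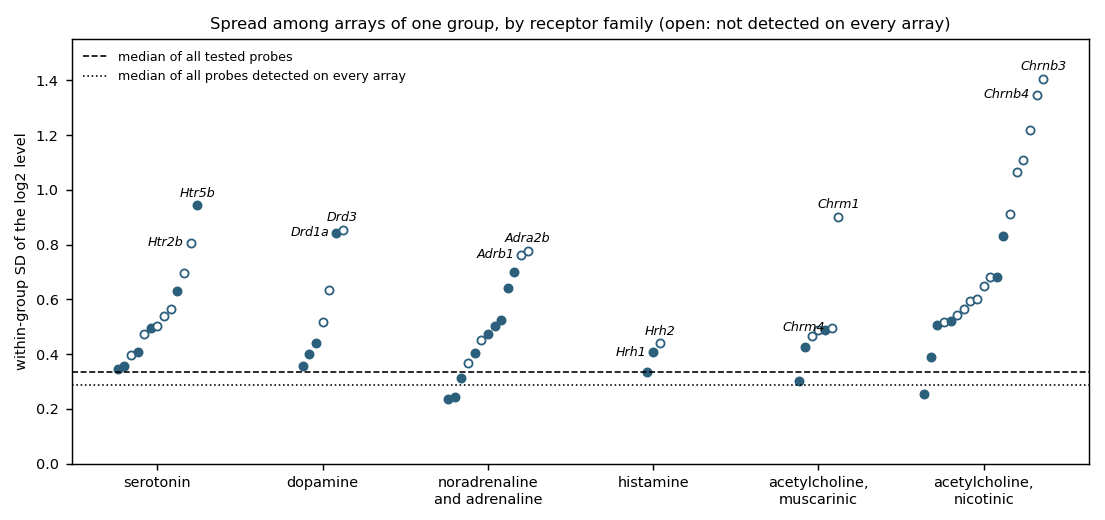
Within-group SD of the log2 level (y axis) of each of the 62 tested receptor probes (points, open where not above background on all 30 arrays), by transmitter (x axis), with the 2 highest genes of each family named. The broken line marks the median of all tested probes (0.34) and the dotted line that of all probes above background on every array (0.29); most receptor probes lie above both lines.

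Several of the variable receptors are known for high expression in regions or tissues other than the hypothalamus, and 13 pairs of a receptor and a marker list of such a region or tissue were compared across the 30 arrays, as deviations from the group means. An adjusted permutation p under 0.05 was reached by 7 pairs (two-sided, arrays permuted within groups, adjusted over the 13). The permutations took the arrays of a group as exchangeable across slides, and a part of the slides in these relations was not tested. What share of all tested probes follows these lists was not tested, so 7 of 13 cannot be set against probes in general. WT array 10 deviated by -2.21 on the habenula list, -1.85 on the thalamus list and 1.46 on the striatum list. Chrna3, read by its second probe, followed the habenula list (Gpr151, Pou4f1, Tac2, Calb2 and Irx2) with Pearson r = 0.89 and Spearman rho = 0.87 (adjusted permutation p = 6.5e-05 and 4.3e-05). Within runs r was 0.83 and 0.91, and it was 0.88 without the 2 arrays farthest from the median of the list, WT arrays 10 and 15. In run 2, Chrna3 was highest on WT arrays 12, 15 and 9, at -3.74, -3.79 and -3.81, where the list lay 1.15, 1.39 and 1.15 above its group mean, and lowest on WT array 10, at -6.25, where the list lay 2.21 below. Gpr151 was above background on 27 arrays, Irx2 on 29, and the other 3 on all 30. Tac2 and Calb2 are also known from hypothalamic neurons.

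Htr5b and Chrnb4 followed the same list. For Htr5b r was 0.75 and rho 0.89 (adjusted permutation p = 0.00065 and 4.3e-05), r within runs was 0.83 and 0.76, and it was 0.92 without WT arrays 10 and 15. For Chrnb4 r was 0.65 and rho 0.78 (adjusted permutation p = 0.00773 and 0.000195), r within runs 0.60 (adjusted p = 0.0959) and 0.66, and 0.81 without those arrays. The Chrnb4 probe was above background on 19 of 30 arrays, so this relation rests in part on arrays without a measured signal.

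Adra1b, Htr7 and Chrna4 followed 8 thalamic markers, among them Prkcd, Tcf7l2, Lef1 and Rora, all above background on all 30 arrays. For Adra1b this was with r = 0.89 and rho = 0.90 (adjusted permutation p = 6.5e-05 and 4.3e-05), r = 0.68 and 0.91 within runs, and 0.83 without Per3 4/4 array 7 and WT array 10. Within run 1 rho for Adra1b was 0.60 and did not pass (adjusted permutation p = 0.113). Its log2 level was 1.07 on WT array 10 and 1.22 on Per3 4/4 array 7, the lowest of each group, and 2.73 to 3.23 over Per3 5/5. Htr7 gave r = 0.63 and rho = 0.52 (adjusted permutation p = 0.00078 and 0.00238), with 0.44 (adjusted p = 0.248) and 0.73 within runs and 0.45 without the 2 farthest arrays. Chrna4 gave 0.64 and 0.59 (adjusted permutation p = 0.00773 and 0.00221), but 0.13 within run 1 (adjusted p = 0.834), 0.70 within run 2 and 0.48 without the 2 farthest arrays. The Chrna4 relation therefore did not hold in run 1.

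Drd1a followed 8 striatal markers, among them Adora2a, Rgs9 and Penk, with r = 0.81 and rho = 0.64 (adjusted permutation p = 0.00182 and 0.00221). Within runs r was 0.57 (adjusted p = 0.176) and 0.86, and without WT array 10 and Per3 5/5 array 6 it was 0.66 (adjusted p = 0.00301). Drd2 gave r = 0.50 with the same markers (adjusted permutation p = 0.0829) and 0.27 without those arrays, and 0.14 with the pituitary list. The other 4 pairs did not pass: Chrm4 with striatum (r = 0.16), Htr2c with choroid plexus (0.13), and Chrm1 (-0.14) and Htr2a (0.12) with cortex and hippocampus, with adjusted permutation p of 0.617 for each. The level of the habenula, thalamus and striatum lists had a within-group SD of 0.74, 0.71 and 0.36. Between genotypes the median log2 fold change in Per3 5/5 and Per3 4/4 was 0.08 and 0.28 for habenula and 0.03 and 0.32 for thalamus, where the Per3 4/4 values were -0.13 and 0.01 without WT array 10, and 0 markers of the 3 lists passed the adjusted limma test in either line. How much tissue of these regions a block held was not tested.

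**Figure D5:**
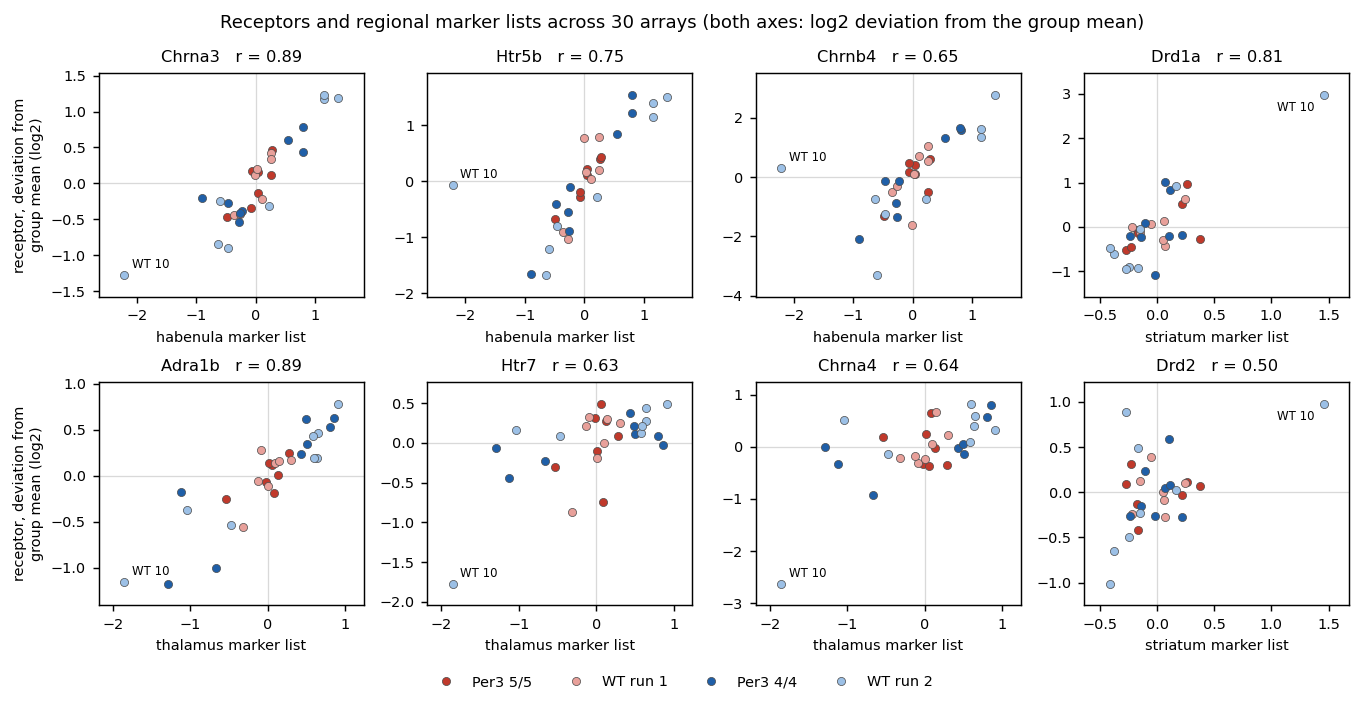
Deviation of 8 receptors from their group mean (y axes, log2) against the mean deviation of a regional marker list (x axes, log2) on 30 arrays, coloured by group, with Pearson's r over all arrays and WT array 10 of run 2 marked. Points of all 4 groups lie along the same trend for Chrna3, Htr5b and Adra1b, whereas the Drd1a and Drd2 panels are stretched by WT array 10.

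Where a gene had more than 1 tested probe, the probes often but not always ranked the arrays alike. Over 17 probe pairs of 15 genes, a comparison chosen after the data were seen, the median r of the deviations was 0.60, with 9 pairs above 0.5 and 7 below 0.2. The Drd2 probes correlated at r = 0.88 (rho 0.87, adjusted permutation p = 8.5e-05 for r, 0.74 and 0.90 within runs, 0.84 without the 2 farthest arrays), and the Chrna3 probes shown above at 0.73. The Chrm1 probes gave -0.08, the Adrb1 probes -0.17 and the tested Htr2c probes -0.20. Of the 3 Adra2a probes, the last 2 correlated at 0.82, and the first with neither (0.06 and -0.33), although all 3 were above background on all 30 arrays.

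The genes around the receptors were likewise without an adjusted call. Of 12 genes of transmitter synthesis, 12 of transport and breakdown, 30 of receptor signalling and 5 of nicotinic receptor assembly that were tested, 0 passed the adjusted limma test in either direction in any of the 3 comparisons. In Per3 5/5 their median log2 fold changes were 0.11, 0.03, -0.10 and 0.24, and in Per3 4/4 -0.02, 0.08 (-0.02 without WT array 10), -0.01 and 0.03, beside -0.02 and 0.01 over all probes. At an unadjusted limma p under 0.05, which 6.17% of all probes met in Per3 5/5, that line had 6 of the 59: Gch1, which makes the tetrahydrobiopterin needed for catecholamine and serotonin synthesis, at 0.66 ± 0.23 (SE), Hnmt, which inactivates histamine, at 0.35 ± 0.16, Lypd6, a modulator of nicotinic receptors, at 0.39 ± 0.18, the adenylyl cyclase Adcy9 at -0.44 ± 0.14, the phospholipase Plcb1 at -0.49 ± 0.23 and the receptor kinase Grk5 at -0.25 ± 0.12. The adjusted limma p of each was 0.796. In Per3 4/4, where 1.73% of all probes did, none of the 59 met it, and the difference between the effects (2.98% of all probes) had Grk5 (-0.37 ± 0.17) and Grk3, a related kinase named Adrbk2 on the array (-0.35 ± 0.17), with adjusted p = 1.00.

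Leaving out the arrays that went against the study's methods or stood apart gave no call. Without Per3 4/4 arrays 6 and 7, 0 of 62 receptor probes passed the adjusted limma test in Per3 4/4 (1, or 1.61%, at an unadjusted p under 0.05, all probes 6.03%), with a smallest adjusted p of 0.789. Without WT array 10 it was 0 of 62 as well, and of the 30 named probes 0 had an unadjusted p under 0.05 in Per3 4/4 (all probes 1.51%) and 1, Chrm2, in the difference between the effects (all probes 4.23%). The Per3 4/4 effect of 9 of the 30 changed sign without that array. Leaving out WT array 14 also gave 0 adjusted calls. Of the 62 receptor probes, 0 then had an unadjusted limma p under 0.05 in Per3 4/4 (all probes 1.85%) and 2 in the difference (all probes 2.96%).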

How the data were processed

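Total RNA of 30 hypothalami was labelled with Cy3 and hybridized to Agilent 4x44K mouse arrays. The authors deposited, per the file headers, Feature Extraction spot intensities (background-subtracted and spatially detrended within each array). A log2 table that the authors had scaled to the 75th percentile, also deposited, served as an alternative. Here control and outlier spots were dropped, spots of a probe averaged, and log2 intensity taken relative to the 75th percentile of each array. No spot was saturated, and 58.6% to 74.6% of spots per array were well above background. Probes well above background on at least 50% of the arrays of a genotype (29946) were fitted with limma 3.58.1 (R 4.3.3) on 4 cells, KI and WT of each run, with Benjamini-Hochberg adjustment at 0.05. Correlations used 100000 permutations within cells (the smallest p they can give is 1e-05). All procedures were tested on simulated data. Alternatives covered background correction, normalization, filtering, slides, array weights, the methods' t-test and rank product, and leaving out arrays. Scan groups (4 per run) were taken as the slides, and whether each was 1 slide was not tested. P-values measure the spread between arrays, 1 mouse each per the labels. The methods give 8 mice per genotype, fewer than the 15 WT arrays, and whether a WT mouse was measured in both runs was not tested. The number of arrays limits their precision. The members, lists and named genes (unadjusted p under 0.05, groups that do not overlap, the 5 largest SDs, and a preset list of receptors) were chosen with earlier results of these data known. Receptors of the preset list were read at the tested probe with the highest mean level. Replicate numbers shared by the run 1 groups did not pair the arrays. Samples of the sleep deprivation protocol were not analysed here.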

Additional observations from a re-analysis of the deposited data

Results flagged for a closer look

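Among 120 groups of arrays checked for a single distant value (30 probes in 4 groups), 12 held one by Dixon's 95% criterion, where chance gives about 1 in 20 groups. That rate does not hold for the 5 probes named for their large SD, among them Chrna10, nor for those named for their p. WT array 10 of run 2 accounted for 4 of them: Chrna10 was high there at a log2 level of -0.66, and Htr7 (-3.52), Chrna4 (-2.89) and Hrh1 (-0.74) were low. Another 3 came from other WT arrays of run 2 or from Per3 4/4: Htr1a was high on WT array 8 at -2.25, the named Chrm4 probe low on WT array 13 at -5.78, and Hrh3 low on Per3 4/4 array 7 at 3.78. In run 1, Htr2c was high on WT array 1 at 1.49 and Chrm3 low on the same array at -2.77. Per3 5/5 array 3 was high for the dim Chrm1 probe at -5.29 and for Chrna7 at -3.21, and Per3 5/5 array 2 was low for Chrna10 at -5.93, where the probe was not above background. No named probe had every KI array of one line above and every KI array of the other below its WT mean.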

How the results depend on the processing

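The count of receptor probes past the adjusted limma threshold was 0 in Per3 5/5, Per3 4/4 and the difference under every alternative run but one, with smallest adjusted p over the limma alternatives and the methods' t-test of 0.162, 0.761 and 0.322, each with array weights. The exception was the rank product in Per3 5/5, which called 2 receptor probes (of 335 in all), the dim Chrm1 and Chrna1 probes. The methods' t-test called 0 receptor probes after Benjamini-Hochberg adjustment and 3 and 0 at an unadjusted p under 0.05 (10.4% and 0.985% of all probes). The most receptor probes at an unadjusted p under 0.05 came with array weights, 10, 3 and 8 of 62 (16.1%, 4.84% and 12.9%), where 10.1%, 5.36% and 10.1% of all probes met it. Over the other alternatives that share ranged up to 13.4% in Per3 5/5 (slide as a fixed block, 3 receptor probes), and the fit on the arrays of run 1 alone had 6 receptor probes, where 10.9% of all probes met it. Leaving out each array in turn gave 0 adjusted calls. With the replicate number as a block in run 1, 0 receptor probes were called (smallest adjusted p 0.430). Same-numbered arrays did not deviate together (r from -0.29 to 0.40 over 7 numbers), and run 2 shares too few numbers for such a fit. With normexp background correction, the Chrm1 effect in Per3 5/5 was -0.21 (-0.94 as reported), and the Chrm2 and Chrna1 differences 0.28 and -0.12. With array weights the Drd2 probe 2 difference was 0.31 (0.60 as reported). For the relations, r within run 1 lost its call for Drd1a with striatum (0.57), Chrnb4 with habenula (0.60), and Chrna4 (0.13) and Htr7 (0.44) with thalamus. By rho the same pairs lost their call in run 1, as did Adra1b with thalamus (0.60). In run 1 r changed sign for the uncalled pairs Htr2c with choroid plexus (-0.27), Drd2 with pituitary (-0.053), Chrm4 with striatum (-0.48) and Htr2a with cortex and hippocampus (-0.13). Run 1 holds 14 arrays, and the cause was not tested. Dim probes limit several channel subunits.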

Other observations

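Marker lists that were not paired with a receptor above, or only with uncalled ones, also varied among arrays of 1 group. The within-group SD of the list level was 1.61 for pituitary, 1.18 for choroid plexus, 0.82 for cortex and hippocampus, 0.79 for blood and 0.66 for hypothalamic neurons. It was 0.30 for oligodendrocytes, 0.27 for microglia, 0.21 for vessels, 0.18 for astrocytes and 0.08 for the 30 receptor signalling genes. The median log2 fold change of 11 choroid plexus markers was -0.74 in Per3 5/5 and 0.93 in Per3 4/4, and that of 7 cortex and hippocampus markers -0.66 and -0.35, the latter 0.06 without WT array 10. No marker of these lists passed the adjusted limma test in either line (smallest adjusted p 0.796 in Per3 5/5 and 1.00 in Per3 4/4), and at an unadjusted limma p under 0.05 there were 2 of 11 choroid plexus markers higher in Per3 4/4 (1.73% of all probes met it in either direction) and 2 of 7 cortex and hippocampus markers lower in Per3 5/5 (6.17%). In the difference between the effects (2.98%), 4 of the 11 choroid plexus markers, Ttr, Clic6, Kl and Slc4a5, were lower in Per3 5/5 relative to Per3 4/4, with an adjusted limma p of 1.00 for each. The level of 4 tested Y-linked genes had a within-group SD of 1.63, with the lowest deviations, -5.31 and -4.76, on Per3 4/4 arrays 6 and 7. Ddx3y was at -8.51 and -8.09 on those arrays and at 1.01 to 1.64 on the other Per3 4/4 arrays. In WT of run 2 it was at 0.66 to 2.04. Of the Y-linked genes, 2 were lower in Per3 4/4 at an unadjusted limma p under 0.05 (1.73% of all probes met it in either direction). None passed the adjusted test.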
